A study of Mus musculus with 6 samples.

Results

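Interferon-stimulated genes are described here as the 75 genes whose symbols name an interferon-induced family, out of 18755 gene symbols to which accessible regions were assigned in myeloid cells of mouse brain tumours. They were chosen by symbol alone, in 12 subfamilies on 13 chromosomes, and 241 of 92864 accessible regions (peaks) were annotated to them. Membership follows names and not a measured response to interferon, so a few members, such as Ifitm10, Slfnl1 and the antisense gene Slfn5os, carry the name without being textbook interferon targets. The assay was ATAC-seq, in which the Tn5 transposase cuts open chromatin and the cut sites are sequenced. It was applied to bone marrow derived macrophages (BMDM) and to microglia (MG), the brain's resident macrophages, from orthotopic, isogenic tumours of the mouse glioma line SB28 in WT mice, with 3 libraries in each group. The BMDM gate was F4/80+ CD11b+ CD45+ CD49d high. The MG gate was F4/80+ CD11b+ CD45 low CD49d low or negative. Both gates kept LY6C low or negative cells without LY6G, and all 6 libraries come from tumour-bearing brain, so no library without a tumour is among them. Whether each library stands for its own animal is not said in the labels, and the p-values then cover the spread between libraries alone, which may be technical.

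Type I interferons bind a receptor of the subunits Ifnar1 and Ifnar2, whose kinases activate transcription factors. Together with Irf9 these form a complex that binds the interferon-stimulated response element, a pair of GAAA cores, in front of many target genes. Interferon gamma acts through Ifngr1 and Ifngr2, and its signal reaches genes that carry the gamma-activated site. Target genes encode sensors of foreign nucleic acid, enzymes that degrade or block viral RNA, GTPases that attack pathogen vacuoles, membrane proteins that hinder viral entry, and inhibitors that end the response. In brain tumours, microglia and recruited macrophages are both known to express such genes.

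Which sequence features the members share was examined first, in the RefSeq promoter windows (GRCm38.p6, the assembly that mm10 denotes) that reach from 250 bases before to 50 bases after a transcript start. Of the 75 members, 55 had a window. The letters GAAA, 2 bases of any kind and GAAA again, the core of the interferon-stimulated response element, occurred on either strand in 30 of these 55 members (54.5%), against 3.99% of all genes with a window. The letters TTCNNNGAA, the core of the gamma-activated site, occurred in 11 of 55 members, against 9.55% of all genes. The paired GAAA letters were found in 5 of 5 Gbp genes, 7 of 9 Ifi2xx genes, 3 of 4 Ifit genes and 2 of 2 Irgm genes, in 4 of 8 Oas genes, in 3 of 9 Slfn genes and 2 of 7 Ifitm genes, and in 0 of 5 of the other Ifi genes. The 5 Gbp genes with a window all lie on chromosome 3, and no Gbp gene of chromosome 5 had a window. A match is a description of the letters and not a binding site.

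The 150 bases before the RefSeq start are shown for 7 members on which the comparison below turns, written in the direction of transcription, with every match of the paired GAAA letters, on either strand, in capitals. Ifi205, Ifi211 and Ifi203 are neighbouring DNA-sensor genes whose promoters were called higher in BMDM, with overlapping groups for Ifi211 and Ifi203. Oas3 is an RNA-sensing synthetase whose promoter was called likewise. Isg15 is a canonical target that did not pass the test, Irgm1 leaned to MG, and Slfn1 had one of the largest differences without a match.
Ifi205, chr1:174031756-174031905, minus strand: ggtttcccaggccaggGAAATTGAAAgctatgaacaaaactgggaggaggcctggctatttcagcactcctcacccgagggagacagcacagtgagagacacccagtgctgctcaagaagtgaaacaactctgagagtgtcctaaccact
Ifi211, chr1:173913047-173913196, minus strand: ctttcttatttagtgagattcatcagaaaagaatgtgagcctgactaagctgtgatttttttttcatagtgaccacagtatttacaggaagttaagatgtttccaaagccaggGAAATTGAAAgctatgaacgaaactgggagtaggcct
Ifi203, chr1:173942493-173942642, minus strand: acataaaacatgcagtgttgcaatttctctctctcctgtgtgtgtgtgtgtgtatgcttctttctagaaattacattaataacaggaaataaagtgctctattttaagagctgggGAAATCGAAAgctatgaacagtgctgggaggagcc
Oas3, chr5:120777660-120777809, minus strand: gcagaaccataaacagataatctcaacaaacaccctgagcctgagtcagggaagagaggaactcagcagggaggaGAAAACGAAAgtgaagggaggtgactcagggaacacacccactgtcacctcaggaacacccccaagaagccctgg
Isg15, chr4:156200819-156200968, minus strand: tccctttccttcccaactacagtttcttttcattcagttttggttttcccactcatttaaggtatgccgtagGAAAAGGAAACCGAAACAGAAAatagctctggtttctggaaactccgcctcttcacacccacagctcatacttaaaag
Irgm1, chr11:48871421-48871570, minus strand: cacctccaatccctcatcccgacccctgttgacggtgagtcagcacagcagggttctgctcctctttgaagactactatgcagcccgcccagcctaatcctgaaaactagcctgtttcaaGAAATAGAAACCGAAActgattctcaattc
Slfn1, chr11:83116670-83116819, plus strand: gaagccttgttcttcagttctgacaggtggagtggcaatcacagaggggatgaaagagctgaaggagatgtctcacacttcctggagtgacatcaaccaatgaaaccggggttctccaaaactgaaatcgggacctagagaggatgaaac

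In the bases shown, the match of Ifi205 began at position -134 from the start, that of Ifi211 at -37, that of Ifi203 at -35 and that of Oas3 at -75. The window of Ifi205 held 2 matches in all, and the other was not wholly within the bases shown. Isg15 had 3 overlapping matches, of which the first began at -78 and the last at -66, and Irgm1 had 2 overlapping matches that began at -30 and -24. Ifi205 and Ifi211 shared an identical run of 25 bases around the match, gccaggGAAATTGAAAgctatgaac, and Ifi205 and Ifi203 shared 14 bases there. Each of the 7 windows lay whole inside a peak annotated to its own gene. Tested as single peaks, those of Ifi205 and Slfn1 were called higher in BMDM (limma adjusted p = 0.0453 and 0.0287). The peaks of Ifi211, Ifi203, Oas3, Isg15 and Irgm1 were not called (limma adjusted p = 0.217, 0.157, 0.291, 0.801 and 0.243). For the 46 tested promoters with a window, log2 differences of BMDM minus MG were taken relative to the median of all promoters. Those with the paired GAAA letters had a median of 0.47 (26 promoters, 4 called), and those without had 0.66 (20 promoters, 4 called).

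Reads in peaks numbered 4910448 to 19727511 in BMDM libraries and 12531808 to 23601865 in MG libraries. The sort's own marker gene Itga4, which encodes CD49d, was more accessible in BMDM (2587, 1632 and 1234 normalized counts, against 696, 837 and 724 in MG), as were 6 of the 9 other tested monocyte and macrophage markers, while 2 of 12 microglia markers, Sall1 and Olfml3, were more accessible in MG. Microglia markers such as P2ry12 and Tmem119 did not pass the test. Markers of other cells moved with the groups as well. Nkg7 and Gzmb, 2 of 9 tested T, NK and B cell markers, and 2 of 9 neutrophil markers were higher in BMDM, and 6 of 13 neural and glial markers and the endothelial marker Cldn5 were higher in MG. The summed level of the T, NK and B cell list was 4680, 5498 and 3150 normalized counts in BMDM and 5153, 3870 and 3867 in MG. Most of this sum came from Klrb1c, with 2914, 3074 and 1719 in BMDM and 3971, 2938 and 2857 in MG. The median deviation of the listed genes from their own mean weighs each gene alike. It was 0.16, 1.06 and 0.39 in BMDM, against -0.78, -0.25 and -0.73 in MG (log2, relative to each library's median gene). By this measure the list was higher in every BMDM library than in any MG library. The neural and glial list summed to 6324, 6286 and 5596 in BMDM and 8015, 16619 and 10802 in MG, so that MG 2 stood apart for neural and glial genes. The neutrophil list summed to 2426, 2455 and 1625 normalized counts in BMDM and 1417, 1327 and 1195 in MG, and no tested marker of these lists was at 0 in all libraries. The part of these cells in the results below was not tested. In sorted bulk cells, fewer cells with an open site and less opening per cell cannot be told apart.

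Normalized counts here are the reads of a peak, or of the peaks summed for a gene (within 100 kb of its start) or a promoter (within 3 kb), divided by the authors' size factors. Differences are BMDM minus MG in log2(normalized count + 1), given with their SE and relative to the median of all features of that kind, which itself lay at -0.27 for genes, -0.31 for promoters and -0.14 for peaks. The limma test with Benjamini-Hochberg adjustment was run over all 18246 genes, 15249 promoters or 87944 peaks that passed a mean of 10, on the difference without that shift. All 65 member promoters, 74 of 75 member genes and 232 of 241 member peaks passed, and Slfnl1 was the gene that did not.

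Accessibility was higher in BMDM than in MG for a minority of the interferon-stimulated genes, among them the DNA sensor Ifi205, the RNA sensor Oas2, the growth regulator Slfn1 and the antiviral membrane protein Ifitm1, and no member passed the test higher in MG. Of 74 member genes, 6 passed the test higher in BMDM, where 2.14% of all genes did, and 0 passed it higher in MG, where 3.51% of all genes did. These 6 were Ifi205, Slfn1, Slfn10-ps, Oas2, Ifitm1 and Oasl2. At an unadjusted p under 0.05, limma gave 19 member genes higher in BMDM and 3 higher in MG, and limma with voom weights on recovered reads called 3 (Ifi205, Slfn1 and Ifitm1) and 0 after adjustment. At promoters, 10 of 65 members passed higher in BMDM, where 2.75% of all promoters did, and 0 passed higher in MG, where 9.16% did. At single peaks, 20 of 232 passed higher in BMDM, where 5.33% of all peaks did, and 0 higher in MG, where 1.54% did. At an unadjusted p under 0.05, limma gave 1 member promoter and 8 member peaks higher in MG, and voom gave 0 of either after adjustment. Higher in BMDM, voom called 5 member promoters and 0 member peaks after adjustment. Over the whole table voom called 277 genes and 315 promoters higher in BMDM and 303 genes and 633 promoters higher in MG. It called no peak of the table in either direction. By the adjusted p of the authors' deposited table, 42 of 241 member peaks were higher in BMDM, where 9.06% of all peaks were, and 4 were higher in MG, where 5.38% were. The balance of calls over the whole table depended on scaling, with 391 genes higher in BMDM and 640 higher in MG as fitted, against 1117 and 397 with cyclic loess and 560 and 250 with library totals, while the members gave 6, 13 and 5 higher in BMDM and 0 higher in MG under each. The calls depended on single libraries, among the members and over the whole table. Without BMDM 2 no gene of the table was called, without BMDM 1 the share called higher in BMDM was 2.7% of member genes (2 genes) and 0.433% of all genes, and without MG 3 it was 2.7% (2 genes) and 1.04%. Without MG 1 it was 13.5% of member genes (10 genes) and 4.0% of all genes, and without MG 2 it was 24.3% (18 genes) and 3.35%. The gene fits without MG 1 and without MG 2 took their error almost wholly from the variance shared by all genes. Their total degrees of freedom were 54738, against 16.9 as fitted with all libraries. The part of this change of error in these shares was not tested. For promoters it was 3.08% of members (2 promoters) and 1.01% of all without BMDM 2, 4.62% (3 promoters) and 1.17% without MG 3, and 9.23% (6 promoters) and 1.49% without BMDM 1. No peak of the table was called without BMDM 1, BMDM 2 or MG 3, and the share was 3.02% of member peaks (7 peaks) and 2.31% of all peaks without BMDM 3, 19.0% (44 peaks) and 12.1% without MG 1, and 21.1% (49 peaks) and 9.31% without MG 2.

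**Figure D1:**
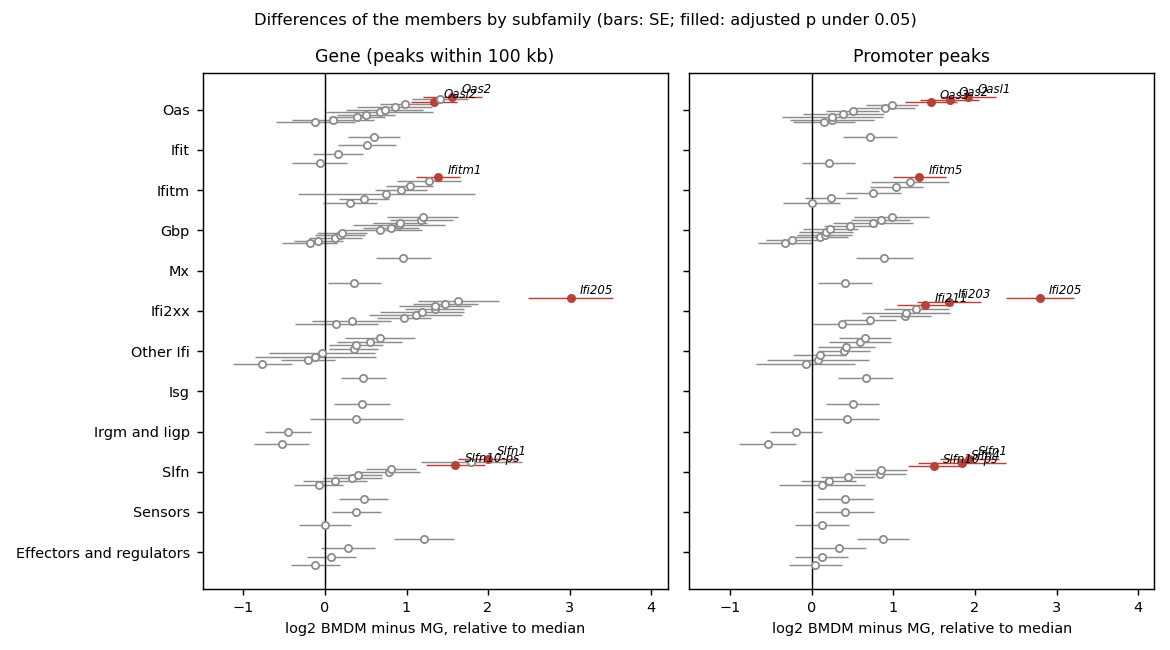
Difference in accessibility between BMDM and MG (x axis, log2, relative to the median feature) of each tested member, in rows by subfamily, for genes (left) and promoters (right). Each point is a member, bars show the SE of the fit over 3 BMDM and 3 MG libraries, and filled, named points passed the test; Ifi205 lies farthest to the right, at 3.01 and 2.79, and no point left of 0 is filled.

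Most members lay on the BMDM side without being called. Relative to the median gene, 62 of 74 member genes (83.8%) lay on the BMDM side, as 50.0% of all genes do by construction, with a member median of 0.51. With cyclic loess, the scaling alternative that does not move all genes of a library alike, the count was also 62. Groups did not overlap, with BMDM above MG, for 9 of 74 member genes, against 6.87% of all genes, and with MG above BMDM for 2, against 21.5% of all genes. For promoters these were 7 of 65, against 5.36% of all promoters, and 1 of 65, against 23.0%. Members share gene clusters and libraries, so they are not independent of each other.

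The Ifi2xx genes of chromosome 1 encode PYHIN proteins, which bind DNA in the cytosol or nucleus. Relative to the median gene all 10 lay on the BMDM side, with a median gene difference of 1.27, 1 called at the gene and 3 at the promoter. Mean normalized counts were nevertheless lower in BMDM for Ifi202b (29.4, against 33.9 in MG) and Ifi213 (139, against 171 in MG). Before the shift by the median, the difference of Ifi202b was -0.13. The gene sum of Ifi205 was 177, 398 and 147 normalized counts in BMDM 1, 2 and 3, against 14.3, 77.1 and 28.2 in MG 1, 2 and 3. Every BMDM library lay above every MG library, with BMDM 2 highest and MG 1 lowest. The difference was 3.01 ± 0.52 (SE; limma, Benjamini-Hochberg adjusted p = 0.00824). It was called in 13 of 15 alternative settings, over which it lay between 2.39 and 3.65. Its promoter alone held 143, 318 and 96.0 normalized counts in BMDM, against 11.9, 72.2 and 26.2 in MG, a difference of 2.79 ± 0.42 (limma adjusted p = 5.23e-07). A second Ifi205 peak, chr1:174017723-174018413 in an intron, was nearly closed in MG. It held 25.8, 60.2 and 45.3 normalized counts in BMDM, against 1.59, 3.83 and 1.94 in MG, where the values of MG 1 and MG 3 lie under the 2.38 and 2.92 that 3 reads are worth. Its fitted difference of 3.81 ± 0.64 (limma adjusted p = 0.026) depends on the added 1 at such low counts.

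Other Ifi2xx genes had smaller differences. The promoter of Ifi203 held 121, 231 and 109 normalized counts in BMDM, against 24.6, 128 and 53.5 in MG. MG 2 lay above BMDM 1 and BMDM 3 here, although limma called the promoter (1.68 ± 0.39, adjusted p = 0.00645, kept in 7 of 14 alternative settings) and did not call the gene (adjusted p = 0.116). The promoter of Ifi211 held 236, 346 and 116 normalized counts in BMDM, against 57.9, 186 and 92.3 in MG. BMDM 3 lay inside the MG range, and limma called it at 1.39 ± 0.35 (adjusted p = 0.0212) but in only 5 of 14 alternative settings. In all, 4 of the 10 promoters called had overlapping groups (Ifi203, Ifi211, Slfn4 and Ifitm5). The promoter fit took its error almost wholly from the variance shared by all promoters. The gene sums of these 4 held the same counts as their promoters. As genes, limma did not call them (adjusted p = 0.116, 0.162, 0.161 and 0.137 in that order). Ifi207, another PYHIN gene, was not called at its gene (1.34 ± 0.37, limma adjusted p = 0.0942), but 2 of its distal peaks were, chr1:173721240-173721483 (2.12 ± 0.48) and chr1:173721558-173721873 (2.67 ± 0.56), with limma adjusted p of 0.041 and 0.0337. Ifi213, chosen after its values were seen, had 2 start-site peaks that went apart. The one at chr1:173598705-173599696 held 61.5, 100 and 67.0 normalized counts in BMDM, against 11.1, 29.0 and 11.7 in MG, and was called (2.32 ± 0.45, limma adjusted p = 0.0292). The other, chr1:173579808-173580893, held 77.4, 56.3 and 54.4 in BMDM, against 38.1, 286 and 138 in MG, with MG 2 and MG 3 above all BMDM libraries.

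**Figure D2:**
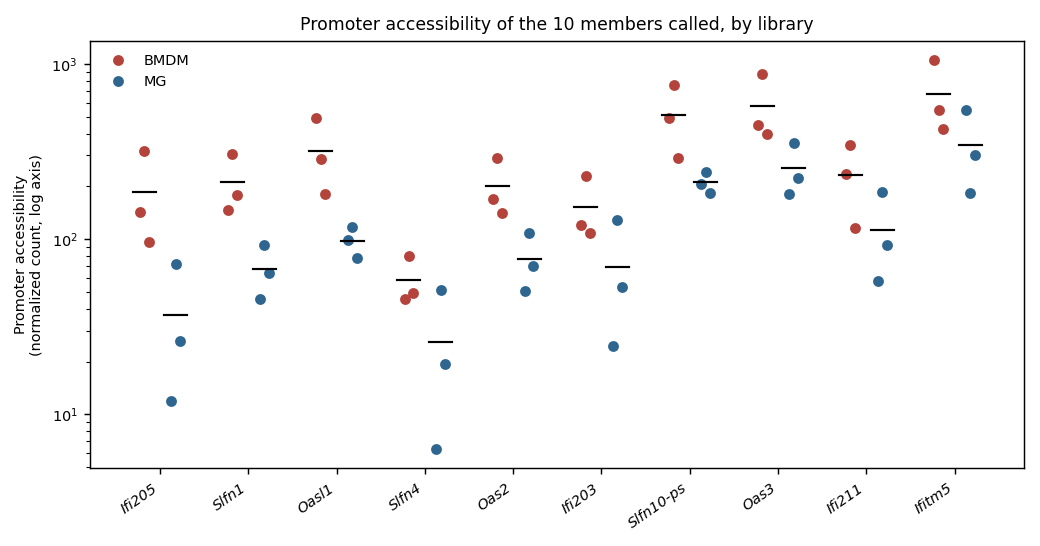
Normalized counts (log axis) of the 10 member promoters called by limma, with a point for each library, BMDM (red) left of MG (blue), and a bar at the mean of the 3 libraries. For Ifi205, Slfn1, Oasl1, Oas2, Slfn10-ps and Oas3 all BMDM points lie above all MG points, and for Slfn4, Ifi203, Ifi211 and Ifitm5 the groups overlap.

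The Oas genes encode oligoadenylate synthetases, which sense double-stranded RNA and signal to the nuclease RNase L; Oasl1 and Oasl2 are related proteins. Of 11 tested genes 2, and of 10 tested promoters 3, were called higher in BMDM. Oas2, Oas3, Oasl1 and Oasl2 had a median gene difference of 1.38, and the 7 Oas1 genes one of 0.51 with none called. As gene sums, voom called none of the Oas genes, and limma had 4 at an unadjusted p under 0.05. At promoters, voom kept the calls of Oas2 and Oasl1 and lost that of Oas3. Oas2 held 194, 325 and 190 normalized counts in BMDM, against 62.7, 146 and 87.5 in MG (1.56 ± 0.36, limma adjusted p = 0.0473). BMDM libraries lay above all MG libraries, but the gene call was kept in 8 of 15 alternative settings, and its promoter call (1.69 ± 0.36, limma adjusted p = 0.00284) in 11 of 14. Oas3, beside it on chromosome 5, held 450, 870 and 397 normalized counts in BMDM, against 182, 355 and 223 in MG. The groups did not overlap; limma called the promoter (1.46 ± 0.32, adjusted p = 0.00576) but not the gene (adjusted p = 0.0596), which sum the same 2 peaks, and within 1 kb the promoter call was lost. Oasl2 held 780, 629 and 587 normalized counts in BMDM, against 251, 396 and 310 in MG (1.34 ± 0.28, limma adjusted p = 0.0358). This gene call was kept in 10 of 15 alternative settings and lost with peaks within 10 kb. The promoter of Oasl2 was not called (0.98 ± 0.32, limma adjusted p = 0.176), and its groups overlapped. A distal peak of Oasl2, chr5:114887852-114888233, held 59.5, 42.1 and 34.4 normalized counts in BMDM, against 5.55, 9.84 and 5.83 in MG (2.66 ± 0.48, limma adjusted p = 0.0267). The promoter call of Oasl1 (1.92 ± 0.34, limma adjusted p = 9.96e-05) rested on 2 peaks, of which the larger lay at chr5:114926616-114927004, annotated at -2845 bp. It held 377, 200 and 134 normalized counts in BMDM, against 69.0, 80.4 and 60.3 in MG, and BMDM 1 was the highest. As a gene sum Oasl1 was not called (0.98 ± 0.31, limma adjusted p = 0.194). Its groups overlapped there, with MG 1 (320 normalized counts) above BMDM 3 (288).

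Schlafen genes encode proteins tied to growth control in immune cells and to restriction of viral translation; Slfn1 and Slfn4 are members known from mouse myeloid and T cells. Among 9 tested genes 2 were called, and among 8 promoters 3. Slfn1 held 179, 385 and 225 normalized counts in BMDM, against 54.7, 105 and 71.9 in MG (2.00 ± 0.37, limma adjusted p = 0.0135). The lowest BMDM library lay above the highest MG library. Its start-site peak, chr11:83116521-83117253, held 51.6, 120 and 90.6 in BMDM, against 7.14, 27.3 and 6.80 in MG (2.92 ± 0.56, limma adjusted p = 0.0287). The pseudogene Slfn10-ps held 809, 1442 and 471 normalized counts in BMDM, against 281, 445 and 275 in MG (1.60 ± 0.36, limma adjusted p = 0.0411). Its groups did not overlap, though BMDM 3 lay close to MG 2. The promoter of Slfn4 held 45.6, 79.6 and 48.9 in BMDM, against 6.35, 51.4 and 19.4 in MG. MG 2 lay inside the BMDM range, and the call was near the threshold (1.84 ± 0.54, limma adjusted p = 0.0422) and kept in 5 of 14 alternative settings. Slfn5 (0.81 ± 0.31, limma adjusted p = 0.326) was not called. Schlafen, PYHIN, Gbp, Oas and Ifitm genes lie in tandem with near-identical copies, and how reads matching several copies were treated is not given in the sources used here, so the share of each copy is uncertain.

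Ifitm genes encode membrane proteins that hinder the entry of viruses, except Ifitm5, which is known from bone. All 7 had a difference on the BMDM side, with a median of 0.93, but that of Ifitm7 (0.75 ± 1.08) came with a value of 0 in MG 1. Ifitm7 held 9.92, 7.77 and 16.3 normalized counts in BMDM, against 0, 31.7 and 17.5 in MG, so its mean was lower in BMDM. Ifitm1 held 692, 664 and 498 normalized counts in BMDM, against 296, 275 and 273 in MG (1.39 ± 0.27, limma adjusted p = 0.025). The groups were widely apart and the libraries of each group close together. Of its 8 peaks, the one called lay at chr7:140981762-140982454, 13722 bp from its start, with 331, 341 and 232 normalized counts in BMDM, against 122, 89.6 and 96.2 in MG (1.67 ± 0.30, limma adjusted p = 0.0281). Its promoter was not called (1.21 ± 0.48, limma adjusted p = 0.244). The promoter of Ifitm5 held 1049, 544 and 428 in BMDM, against 543, 184 and 301 in MG (1.319 ± 0.322, limma adjusted p = 0.0201), with MG 1 above BMDM 3 and just below BMDM 2, and the call was kept in 6 of 13 alternative settings. Ifitm6 had 2 distal peaks called, at 2.05 ± 0.43 and 2.13 ± 0.42 (limma adjusted p = 0.0339 and 0.0297). Ifitm10 (0.30 ± 0.33 at the gene, limma adjusted p = 0.963) was not called.

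The guanylate-binding proteins, interferon-induced GTPases that attack pathogen vacuoles, had no gene called among 11 by limma or by voom, with 2 (Gbp2b and Gbp11) higher in BMDM at an unadjusted p under 0.05 in limma. The 6 genes on chromosome 5 had a median difference of 0.86 and the 5 on chromosome 3 one of 0.18. Gbp11 held 139, 203 and 139 normalized counts in BMDM, against 42.0, 178 and 74.8 in MG (1.196 ± 0.438, limma adjusted p = 0.227). MG 2 lay inside the BMDM range. Single distal peaks of the chromosome 5 cluster were called, chr5:105356279-105357024 of Gbp11 (2.03 ± 0.45, limma adjusted p = 0.0388) and 2 of Gbp4 (1.79 ± 0.40 and 2.13 ± 0.49, limma adjusted p = 0.0402 and 0.0427). Gbp3 (-0.08 ± 0.30, limma adjusted p = 0.52) was not called.

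No gene of the Isg, Ifit, Mx and sensor subfamilies was called by limma or by voom, and none had an unadjusted p under 0.05 in limma. Isg15, a ubiquitin-like modifier named after its values were seen, held 315, 407 and 152 normalized counts in BMDM, against 223, 264 and 224 in MG. BMDM 3 was the lowest library of all, and the difference was 0.46 ± 0.34 (limma adjusted p = 0.777). Isg20, an exonuclease, had a difference of 0.47 ± 0.27 (limma adjusted p = 0.701). Among the Ifit genes, which bind foreign RNA, Ifit1bl2 had 0.60 ± 0.32 and Ifit2 0.16 ± 0.31 (limma adjusted p = 0.569 and 0.865). The Mx GTPases had 0.96 ± 0.34 for Mx1 and 0.36 ± 0.32 for Mx2 (limma adjusted p = 0.245 and 0.893). Of the RNA sensors, Ifih1 had 0.47 ± 0.30 and Dhx58 0.39 ± 0.30 (limma adjusted p = 0.718 and 0.849). Usp18, which removes Isg15 and dampens signalling at the receptor, had -0.12 ± 0.30 (limma adjusted p = 0.472).

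Rsad2, an enzyme that makes a chain-terminating nucleotide, was called at 1 of its peaks and not as a gene. The gene held 1037, 1368 and 556 normalized counts in BMDM, against 347, 784 and 406 in MG (1.21 ± 0.36, limma adjusted p = 0.136), with MG 2 above BMDM 3. An intronic peak, chr12:26449602-26449887, held 69.4, 63.5 and 39.9 in BMDM, against 11.1, 11.5 and 4.86 in MG. All 3 BMDM libraries lay far above MG there (2.71 ± 0.47, limma adjusted p = 0.026). Likewise an exonic Ifih1 peak, chr2:62635091-62635755, was called (1.64 ± 0.37, limma adjusted p = 0.042). The 20 peaks called, all with BMDM above MG in every library, belonged to 14 genes and comprised 10 distal intergenic, 5 promoter, 3 intron and 2 exon peaks.

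The immunity-related GTPases and a few other Ifi genes lay on the other side or split. Irgm1, a regulator of vacuole-directed GTPases, held 534, 853 and 596 normalized counts in BMDM, against 718, 1773 and 1125 in MG. BMDM 2 lay above MG 1, and limma did not call it (-0.53 ± 0.34, adjusted p = 0.173). Without MG 1 it was called, as were Ifi27l2b, Oas1d and Oas1g, 4 member genes higher in MG (5.41%), where 12.3% of all genes were. The fit without MG 1 took its error almost wholly from the variance shared by all genes. Irgm2, a related regulator named after its values were seen, held 815, 881 and 705 in BMDM, against 1138, 1642 and 1209 in MG, with all MG libraries above BMDM but no call (-0.45 ± 0.28, limma adjusted p = 0.144). Ifi27l2b held 89.3, 109 and 114 in BMDM, against 132, 358 and 206 in MG, again without overlap (-0.77 ± 0.36, limma adjusted p = 0.102). Ifi47, an immunity-related GTPase, was split within its locus. Its gene difference was 0.67 ± 0.43 (limma adjusted p = 0.611), yet the peak at chr11:49075780-49076812 held 91.3, 135 and 54.3 in BMDM, against 27.8, 38.3 and 23.3 in MG (1.69 ± 0.40, limma adjusted p = 0.0487). An intronic peak, chr11:49093831-49094202, held 43.6, 57.0 and 47.1 in BMDM, against 10.3, 9.29 and 13.6 in MG (2.20 ± 0.40, limma adjusted p = 0.0274). At chr11:49086610-49087379 the peak held 113, 145 and 129 in BMDM, against 29.4, 348 and 165 in MG, with MG 2 highest and MG 1 lowest. Ifi30, a lysosomal reductase of antigen processing, had 0.38 ± 0.33 (limma adjusted p = 0.874).

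Within each group many members shared the same order of libraries. MG 2 was the highest MG library for 60 of 74 member genes (81.1%), against 41.3% of all genes, and MG 1 the lowest for 48 (64.9%), against 30.6%. In BMDM, BMDM 2 was highest for 56 members (75.7%), against 6394 of all 18246 genes, and BMDM 3 lowest for 52 (70.3%), against 64.6%. The median deviation of the members from their own mean was 0.06, 0.49 and 0.22 in BMDM 1, 2 and 3, and -0.73, 0.22 and -0.27 in MG 1, 2 and 3, on the log2 scale and relative to each library's median gene. The neural and glial list was highest in MG 2 (-0.83, -1.08 and 0.08 in BMDM, against -0.39, 1.37 and 0.83 in MG). The part of neural and glial cells in the member values of MG 2 was not tested.

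**Figure D3:**
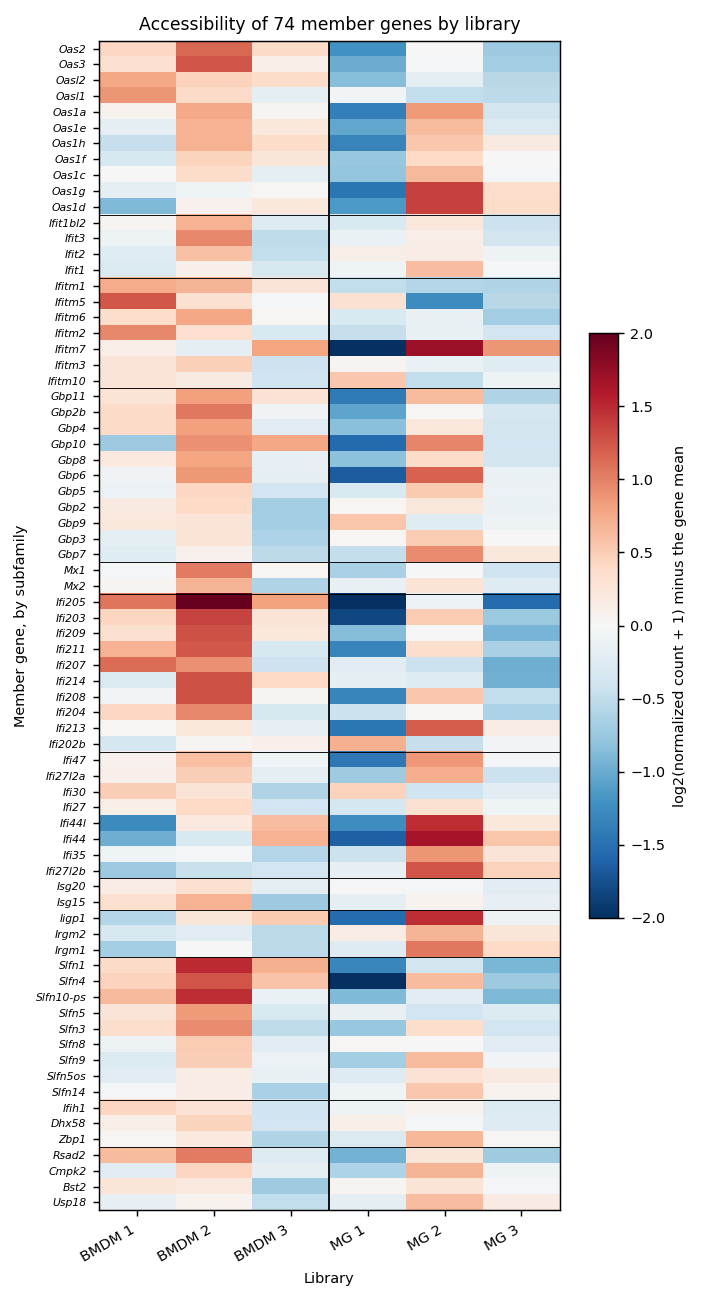
Accessibility of 74 member genes (rows, grouped by subfamily with lines between groups) in 3 BMDM libraries (left) and 3 MG libraries (right), as log2(normalized count + 1) minus the gene's mean, with the colour scale ending at -2 and 2. BMDM 2 is the reddest BMDM column, MG 1 the bluest MG column and MG 2 the highest of the MG libraries for 60 of the 74 genes.

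Few pathway genes outside the symbol rule passed the test. Of 11 tested interferon ligand genes, 1 was called: Ifng, the type II interferon of T and NK cells, with 940, 950 and 645 normalized counts in BMDM, against 343, 296 and 319 in MG (1.65 ± 0.27, limma adjusted p = 0.0101). The T and NK cell genes Nkg7 (2.43 ± 0.32, limma adjusted p = 0.00478) and Gzmb (1.85 ± 0.34, limma adjusted p = 0.0147) were higher in BMDM too, and their part in the Ifng value was not tested. None of 6 receptor genes, 13 kinase and transcription factor genes, 12 sensor and adaptor genes, 10 inhibitor genes or 39 other interferon-stimulated genes outside the symbol rule was called by limma or voom in either direction, with 4 of these 80 higher in BMDM and 2 higher in MG at an unadjusted p under 0.05 in limma. Irf9 had 0.39 ± 0.28 and Irf7, which drives type I interferon, had 0.70 ± 0.30. The median differences were 0.29 for ligands, 0.54 for receptors, 0.35 for kinases and transcription factors and 0.097 for sensors and adaptors. They were 0.10 for inhibitors and 0.22 for the other interferon-stimulated genes, against 0.51 for the members.

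The authors' deposited table also holds a second gene-level comparison of BMDM minus MG, whose assay and samples are not named in the sources used here. In that comparison of the authors' deposited table, 63 members had an adjusted p, 18 were higher in BMDM, where 5.47% of all genes were, and 1, Ifitm10, was higher in MG, where 4.04% were. The members' median was 0.92 on the log2 scale and that of all genes 0.04, in the authors' deposited table. Among the 18, Ifitm6 at 4.99, Slfn1 at 4.25, Slfn4 at 4.21 and Ifitm1 at 4.17 were the largest in the authors' deposited table. Ifit1bl2 stood at 4.26 there too, with an adjusted p of 0.53 in the authors' deposited table. Isg15 (2.02, adjusted p = 2.49e-04), Mx1 (2.06), Isg20 (1.96), Zbp1 (1.58) and Bst2 (1.41) were higher in BMDM in the authors' deposited table without a call in accessibility. Of those 18 genes, 13 had neither a gene nor a promoter call in accessibility. Relative to the median gene, the accessibility differences of the 18 ran from 0.00 for Zbp1 (SE 0.32) and 0.08 for Bst2 (SE 0.30) to 2.00 for Slfn1. Conversely 3 of the 6 genes called in accessibility, and 4 of the 9 called promoters with a value, were also called in the authors' deposited table. Ifi205, which had the largest accessibility difference among the members, stood at 1.84 (adjusted p = 0.0585) and Oas2 at 0.18 (adjusted p = 0.917) in the authors' deposited table. Irgm1 stood at -0.99 (adjusted p = 0.16) in the authors' deposited table, on the MG side as in accessibility, and was called in neither.

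**Figure D4:**
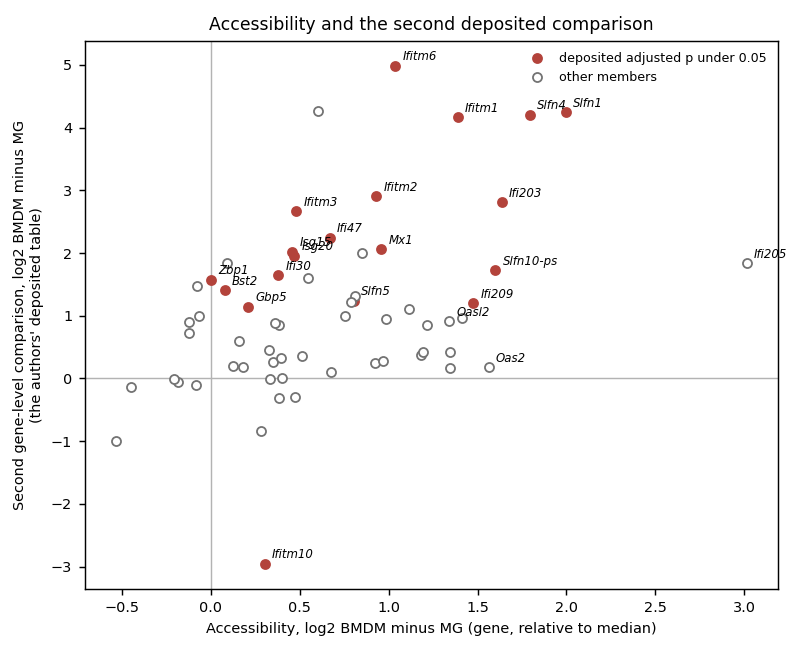
Each point is a member gene, placed by its accessibility difference (x axis, log2 BMDM minus MG relative to the median gene) and by its log2 BMDM minus MG value in the second comparison of the authors' deposited table (y axis). Filled points had an adjusted p under 0.05 there; 18 of them lie above 0 and Ifitm10 at -2.95 lies below, and the accessibility calls Ifi205, Oas2 and Oasl2 are open points.

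The authors also called peaks in each library. Of 107 member promoter peaks 42 (39.3%) overlapped a called peak in all 6 libraries, against 37.1% of all promoter peaks. The share found was 56.1%, 81.3% and 39.3% in BMDM 1, 2 and 3, and 61.7%, 87.9% and 64.5% in MG 1, 2 and 3. Of all promoter peaks it was 52.9%, 68.2% and 37.8% in BMDM and 69.0%, 82.7% and 69.7% in MG. The members lay near all promoter peaks in BMDM 1 and BMDM 3, above them in BMDM 2 and MG 2, and below them in MG 1 and MG 3. Of 134 other member peaks the share was 31.3%, 61.9% and 7.46% in BMDM and 29.9%, 67.9% and 38.8% in MG. Of all other peaks it was 26.9%, 48.6% and 9.35% in BMDM and 44.2%, 69.9% and 46.9% in MG. The lists held 33982, 52631 and 17741 peaks in BMDM, against 50217, 70739 and 52566 in MG, and with lists of such unequal length the shares are not compared between groups.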

How the data were processed

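ATAC-seq gave 3 BMDM and 3 MG libraries sorted from SB28 tumours, grouped and numbered by the labels. The authors worked on build mm10 with DESeq2 1.36.0, ChIPseeker 1.32.1, MACS2 2.1.1.20160309, Bowtie2 2.4.1 and cutadapt 1.8.1, per the submitters' processing notes. Their settings, the handling of duplicates and any Tn5 shift of reads were not given in the sources used here. In the deposited table are log2 values per library, variance-stabilized by the authors, with gene symbols, peak classes and distances. Per the file headers it also holds the authors' mean normalized signal, log2 fold changes, p-values and adjusted p-values. The deposited peak lists give each peak's fold enrichment as a ratio, a score and −log10 p and q-values, and only their overlap with the table's peaks entered here. A further 8 per-sample columns of the table belong to no sample of the series and were left out.

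The table had 93084 lines, of which 155 repeated a peak and 65 held peaks with no annotation, leaving 92864 peaks. The stabilization was inverted to normalized counts, and their means matched the deposited means within 2.37e-06 of the value. The size factors turned 100% of these into whole reads within 0.02. A limit of 3 counts was worth 1.64 (MG 2) to 5.95 (BMDM 1) normalized counts, which covers counting error only, since PCR reads are not independent molecules.

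limma 3.58.1 (R 4.3.3) with a variance trend was run on log2(normalized count + 1) for features with a mean of at least 10, over all genes, promoters and peaks, with Benjamini-Hochberg adjusted p under 0.05 as threshold, and was tested on simulated data. This scale understates the change of low features. A count model was planned as an alternative, but since the deposited columns are log2 values, voom on the recovered reads took its place. Other alternatives changed the scaling, filter, pseudocount, distance, replicate block and libraries. Genes named are those called and, in each subfamily, the largest difference and the highest promoter mean; any others were chosen after their values were seen. The members and lists were chosen with earlier results of these data known.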

Additional observations from a re-analysis of the deposited data

How the results depend on the processing

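The counts of members called depended on single libraries and on the test. Leaving out 1 library at a time gave 0 to 18 member genes for BMDM and 0 to 4 for MG, 2 to 12 promoters for BMDM and 0 to 2 for MG, and 0 to 49 peaks for BMDM and 0 to 14 for MG. Over the whole table the same gave 0 to 730 genes for BMDM and 0 to 2246 for MG, 154 to 503 promoters and 496 to 1846, and 0 to 10603 peaks and 0 to 11278. Cyclic loess scaling gave 13 member genes for BMDM, TMM scaling 32 member peaks, and voom, added after seeing the data, 3 genes, 5 promoters and 0 peaks. Over the whole table, cyclic loess called 1117 of 18246 genes for BMDM and TMM scaling 7036 of 88036 peaks. There voom called 277 of 18246 genes, 315 of 15249 promoters and 0 of 87944 peaks for BMDM. The adjusted p-values of the authors' deposited table gave 42 member peaks for BMDM and 4 for MG, where 9.06% and 5.38% of all peaks were called. The weight given to the variance shared by all genes also differed between the gene fits. The cause of these changes was not tested. Without the filter on low values, or with a pseudocount of 4, every count stayed within 1.5 times. None of the member genes and promoters called changed direction under the alternatives run.

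With the replicate number as a block, 19 genes, 12 promoters and 52 peaks were called for BMDM, and 3 genes, 1 promoter and 2 peaks for MG. The gene fit with the block took its error almost wholly from the variance shared by all genes (36492 total degrees of freedom). Of all features the block called 912 genes (5.0%), 539 promoters (3.53%) and 9212 peaks (10.5%) for BMDM, and 2333 (12.8%), 2044 (13.4%) and 5215 (5.93%) for MG. Deviations of same-numbered libraries correlated at 0.55, -0.16 and 0.45, so the numbers were not taken as pairing the libraries.

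The direction turned only for 5 named members that were not called. Leaving out 1 library at a time gave -0.25 to 0.10 for Gbp3 (0.01 without BMDM 1), -0.0237 to 1.22 for Ifi47 and -0.13 to 1.27 for its promoter, -0.10 to 0.34 for Ifit2 and -0.0397 to 0.42 for its promoter, -0.28 to 0.25 for the Ifitm10 promoter (0.09 without BMDM 2 and 0.02 without MG 3), and -0.39 to 0.10 for Usp18 and -0.23 to 0.25 for its promoter. Promoter peaks within 1 kb gave -0.0586 for Usp18. Of the other values of named members, 729 kept their direction and side of the threshold, 43 came to pass it and 70 no longer passed it.

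The planned edgeR alternative was not run, because the deposited columns are log2 values. The depth of BMDM 1 and BMDM 3 limits what can be seen of low peaks.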
